A study of Homo sapiens with 9 samples.

Results

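The 3 libraries that carry replicate number 2, 1 from each of 3 HL-60 lines, were compared with the 6 libraries of replicates 1 and 3 from the same lines. The members are these 3 of the 9 libraries of the series, taken by the replicate number in the sample titles, and 12569 of the 20637 genes in the deposited table were tested. HL-60 is an established human acute myeloid leukaemia cell line of promyelocyte-like cells. The parental line was grown without drug, the HRA line is resistant to cytarabine (Ara-C) and was grown with 100 nM of it, and the HRD line is resistant to daunorubicin (DNR) and was grown with 30 nM of it. All 3 lines were kept in RPMI medium with 10% fetal bovine serum, split every 2 to 3 days and used for no more than 10 passages after thawing. Poly(A)-selected, strand-marking RNA-seq libraries were made from total RNA. Each condition is represented by 1 line, and the labels do not say whether the resistant lines were cloned. The series text calls the replicates biological, but the labels do not say whether a shared replicate number marks a shared day, passage, medium or RNA preparation, nor that replicate 2 had any treatment of its own. No label gives a culture state, so they are called here the replicate 2 libraries, and the handling that the number stands for cannot be told apart from the cells' state.

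A pair of gene programmes takes up most of what follows. Cells short of oxygen stabilise hypoxia-inducible factors, which bind a short core motif near genes for glucose uptake, glycolysis, mitochondrial turnover and collagen hydroxylation. Cells short of sterols process SREBP2, a membrane-bound transcription factor that raises the enzymes of cholesterol synthesis, and the related SREBP1 does the same for fatty acid synthesis.

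The replicate 2 libraries held 22300023 to 27449119 reads, the replicate 3 libraries 20822709 to 28967118 and the replicate 1 libraries 47537926 to 66563328. Replicates 2 and 3 were therefore of like depth, and replicate 1 was deeper. The 10 most abundant genes took 6.78% to 7.32% of the reads in replicate 2 and 6.38% to 6.75% in the other 6 libraries, and the replicate 2 share was the highest of its line in each line. Of the defining granulocyte-lineage genes, MPO (myeloperoxidase) was abundant, with 274388, 250410 and 256004 normalised reads in parental, HRA and HRD replicate 2 and 199686 to 314199, median 272014, in the others. The granule proteins AZU1 and PRTN3 were far lower and uneven: AZU1 had 431, 589.8 and 1232 in replicate 2 and 383 to 1666, median 964, in the others (-0.38 ± 0.40 on the log2 scale, limma adjusted p 0.701). PRTN3 had 1515, 549 and 1723 against 798 to 3570.2, median 1615 (-0.51 ± 0.28, limma adjusted p 0.398). ELANE, neutrophil elastase, did not pass the filter on low values, with at most 4.06 normalised reads in any library. Marker lists of T and NK cells, B cells, erythroid and megakaryocytic cells, and fibroblasts and epithelium had 0, 3, 3 and 5 tested members, and none was called by limma, edgeR or DESeq2, with 1 of them at an unadjusted p below 0.05. The summed normalised reads of the T and NK list were 9.04 to 37.9 in replicate 2 and 9.62 to 34.9 in the other libraries. The B cell list had more, 345 to 1070 in replicate 2 and 282 to 1096 in the others. The erythroid and megakaryocytic list had 150 to 214 and 109 to 200, and the fibroblast and epithelial list 125 to 542 and 123 to 497.

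More genes stood apart upwards than downwards in replicate 2. With line as a block, 239 genes (1.9% of those tested) were higher and 95 (0.756%) were lower in replicate 2 (limma on log2 of the normalised read count plus 1, Benjamini-Hochberg adjusted p below 0.05), together 334 (2.66%). The median size was 0.65 on the log2 scale among the higher genes and -0.51 among the lower genes, and 57 genes (0.453%) were at least 2-fold higher against 8 (0.0636%) at least 2-fold lower. The replicate 2 value lay beyond both other replicates, in the same direction, in each of the 3 lines in all 334 called genes, an order that the test itself favours. It held for 2536 (20.2%) of all tested genes, upwards in 1409 (11.2%) and downwards in 1127 (8.97%). In 134 of the 334 called genes, and 393 of all tested genes, the 3 replicate 2 libraries did not overlap the 6 others even with line ignored. The last gene called was OARD1, at an adjusted p of 0.0493, and the first one not called was SEC31B, at 0.05004. Without the parental, HRA or HRD replicate 2 library the counts were 55, 52 and 36 higher and 5, 1 and 1 lower. Replicate 2 was singled out with earlier results of these same data known, so these counts describe its distance from the other libraries and do not test whether 1 replicate number was unusual.

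The balance of higher and lower genes differed between the references. Against replicate 1 alone, 108 genes (0.859%) were higher in replicate 2 and 12 (0.0955%) lower, and against replicate 3 alone 286 (2.28%) were higher and 285 (2.27%) lower, 571 (4.54%) in all. Between replicates 3 and 1, no gene was called by limma, with 1217 genes at an unadjusted p below 0.05; edgeR called 0 and DESeq2 18. Without HRD replicate 1 limma called 7 higher and 32 lower there, 757 and 667 against replicate 3, and 195 and 248 against replicate 1. The comparisons with replicates 1 and 3 share the replicate 2 libraries, so their counts are not independent of each other. Over all tested genes the median absolute log2 difference was 0.11 between replicates 2 and 1, 0.14 between 2 and 3, and 0.11 between 3 and 1. Over the same genes the contrast of replicate 2 with the others held 31% of the within-line sum of squares, on 1 degree of freedom. The contrast of replicate 3 with replicate 1 held 16.2%, also on 1, and the remainder 52.8%, on 4.

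**Figure D1:**
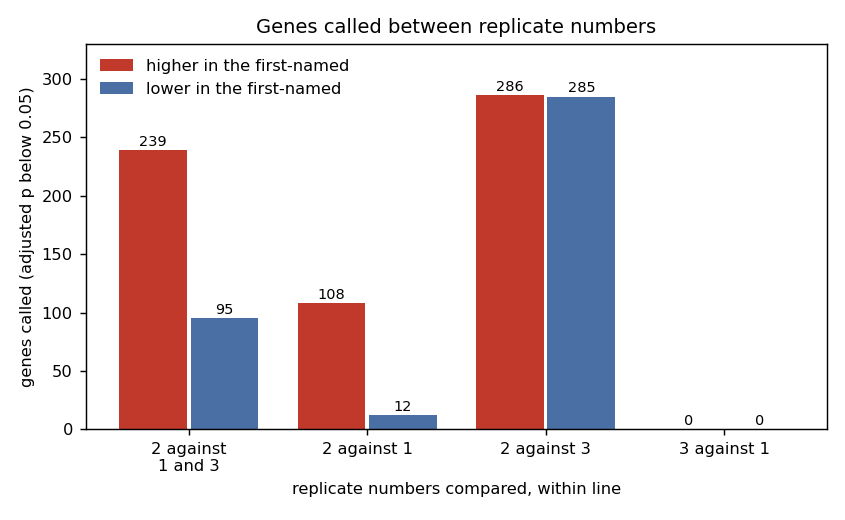
Number of genes called at an adjusted p below 0.05 (vertical axis) in each comparison of replicate numbers within line (horizontal axis), with higher and lower genes as separate bars. Replicate 2 differed from replicate 3 in 286 genes upwards and 285 downwards, from replicate 1 in 108 upwards and 12 downwards, and no gene was called between replicates 3 and 1.

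With the filter on low values, no difference between the lines in the replicate 2 contrast was detected at this number of libraries. The test of an interaction between line and replicate 2 called 0 genes with limma (smallest adjusted p 0.9999, and 120 genes at an unadjusted p below 0.05), 0 with edgeR and 0 with DESeq2. With no filter on low values limma called 635 genes, and the cause was not tested. A p above the threshold does not show that the lines were alike.

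Hypoxia-inducible genes had the largest median difference of the lists with 10 or more tested members. Here and below, a value in normalised reads is a read count divided by the library's size factor, log2 differences are replicate 2 minus the others within line, ± is the standard error of the fit, and n is 3 against 6 libraries. Of 19 tested members of that list, 11 (57.9%, beside 2.66% of all tested genes) were higher in replicate 2 and 0 lower. The median log2 difference was 0.73, while all tested genes had a median of 0.00. The median was 0.69 in parental, 0.62 in HRA and 0.87 in HRD cells. All 19 differences were above 0, beside 50.5% of all tested genes. Against replicate 1 alone the list's median was 0.66 and against replicate 3 alone 0.80. The count of 11 was 8 to 12 with any 1 library left out, 5 without the HRD line and 1 without the line block. In bulk RNA, more cells expressing a gene and more RNA per cell cannot be told apart.

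The hypoxia response core ACGTG was searched on both strands of RefSeq promoters (250 bases before to 50 after a start, build GRCh38.p14). It overlaps the E-box CACGTG, which was searched separately. It was found in 8 of 13 promoters (61.5%), belonging to 7 of the 9 higher hypoxia genes with a promoter in the table, in 61.9% of the promoters of all tested list members, and in 26.0% of the 13997 promoters of tested genes. Among the 287 promoters of all genes higher in replicate 2 the share was 25.1%. For the glycolysis list it was 4 of 11 promoters (36.4%), belonging to 4 of the 5 higher genes with a promoter. Among the promoters of all tested glycolysis members it was 38.6%. The windows below show the match nearest the start in 4 higher hypoxia genes and in 2 higher genes of glycolysis, to let the shared core be seen; capitals mark ACGTG or its reverse complement CACGT, and a match is no evidence of binding. They lie at chr10:131982022-131982086 (minus strand) for BNIP3, chr10:73096918-73096982 (minus strand) for P4HA1, chr3:4979258-4979322 (plus strand) for BHLHE40, chr2:172556052-172556089 (plus strand) for PDK1, chr17:28576896-28576953 (minus strand) for ALDOC and chr12:6914432-6914496 (plus strand) for ENO2, all upstream of the start.
BNIP3: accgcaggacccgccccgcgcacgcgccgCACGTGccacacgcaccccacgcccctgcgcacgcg
P4HA1: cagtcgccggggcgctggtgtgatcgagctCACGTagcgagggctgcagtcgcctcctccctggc
BHLHE40: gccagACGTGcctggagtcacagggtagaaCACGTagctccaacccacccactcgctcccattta
PDK1: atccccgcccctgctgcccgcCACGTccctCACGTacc
ALDOC: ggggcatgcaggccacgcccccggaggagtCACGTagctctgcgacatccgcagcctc
ENO2: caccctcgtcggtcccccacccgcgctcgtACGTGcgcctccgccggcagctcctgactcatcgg

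PFKFB4, a bifunctional enzyme that sets fructose 2,6-bisphosphate and so the rate of glycolysis, had 643, 947 and 1187 normalised reads in parental, HRA and HRD replicate 2. The same lines had 84.2, 215 and 98.7 in replicate 1 and 132, 78.0 and 108 in replicate 3. The 3 replicate 2 libraries were thus the highest of the 9, and the log2 difference was 2.99 ± 0.29, which is 7.94-fold (limma adjusted p 0.00105). Its paralogue PFKFB3 had 1510.3, 1932 and 1877 in replicate 2 and 874 to 1462, median 1106, in the others, a log2 difference of 0.66 ± 0.09 (limma adjusted p 0.00573).

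Both BNIP3-type mitophagy receptors on the outer mitochondrial membrane were also higher. BNIP3 had 1794, 1702 and 1756 normalised reads in replicate 2 and 487 to 883, median 642, in the others, with no overlap and a log2 difference of 1.44 ± 0.17 (limma adjusted p 0.00247). BNIP3L had 1281, 2112 and 1728 against 411 to 1071, median 569, also without overlap, at 1.496 ± 0.19 (limma adjusted p 0.00349). PDK1, the kinase that inhibits pyruvate dehydrogenase, was at 1551, 1963 and 1725 in replicate 2 and 901 to 1313, median 969, in the others, again with no overlap (log2 difference 0.77 ± 0.08, limma adjusted p 0.00143).

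NDRG1, a stress-response protein, and BHLHE40, a transcriptional repressor that is also counted among clock genes, were higher by 1.58 and 1.39 on the log2 scale (limma adjusted p 0.00138 and 0.00378). In NDRG1 the parental replicate 2 value of 1179 lay below the HRA replicate 1 value of 1399.5, so replicate 2 stood apart within each line and not over all lines. P4HA1, a subunit of collagen prolyl 4-hydroxylase, had 4511, 7588 and 8244 in replicate 2 against 2038 to 3827, median 2597, in the others (log2 difference 1.29 ± 0.13, limma adjusted p 0.00138). KDM3A, a histone demethylase, INSIG2, which retains the SREBP escort protein SCAP in the endoplasmic reticulum, and FAM162A completed the 11, at 0.69, 0.73 and 0.44.

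The remaining 8 tested members did not pass. They included VEGFA, the angiogenic growth factor, with 2434, 1953 and 2936 normalised reads in replicate 2 and 1824 to 2872, median 2010.2, in the others (log2 difference 0.17 ± 0.13, limma adjusted p 0.544), and ADM, the vasodilator adrenomedullin, with 27.0, 112 and 70.8 against 7.94 to 60.03, median 22.4 (1.45 ± 0.40, 0.0947). In both genes the groups overlapped over all lines. Within lines, each ADM replicate 2 value was the highest of its line. HIF1A, which encodes the hypoxia-inducible factor subunit that is controlled mainly at the protein level, had a log2 difference of 0.04 ± 0.08 (limma adjusted p 0.833).

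Beyond the list, several genes known as hypoxia-responsive were picked after their values were seen, and so carry no weight as a group. MIR210HG, the host transcript of the hypoxia-induced miR-210, had 33.1, 44.6 and 60.3 normalised reads in replicate 2 and 1.07 to 14.0, median 2.11, in the others (3.48 ± 0.60, limma adjusted p 0.0140). It passed the filter through the replicate 2 libraries, since only 1 of the 6 others reached 10, so its difference rests on values of a few reads. It is among 8 of the 239 higher genes that had fewer than 3 of the 6 other libraries at 10 or more. AK4, a mitochondrial adenylate kinase, GBE1, the glycogen branching enzyme, and PLOD1, a collagen lysyl hydroxylase, were higher by 0.61, 0.73 and 0.57 (limma adjusted p 0.00833, 0.00296 and 0.00403). APLN, a secreted peptide ligand, had 135, 114 and 205 in replicate 2 and 25.6 to 76.3, median 44.9, in the others (1.69 ± 0.29, limma adjusted p 0.0134), with a mean of 82.3 over all 9 libraries.

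**Figure D2:**
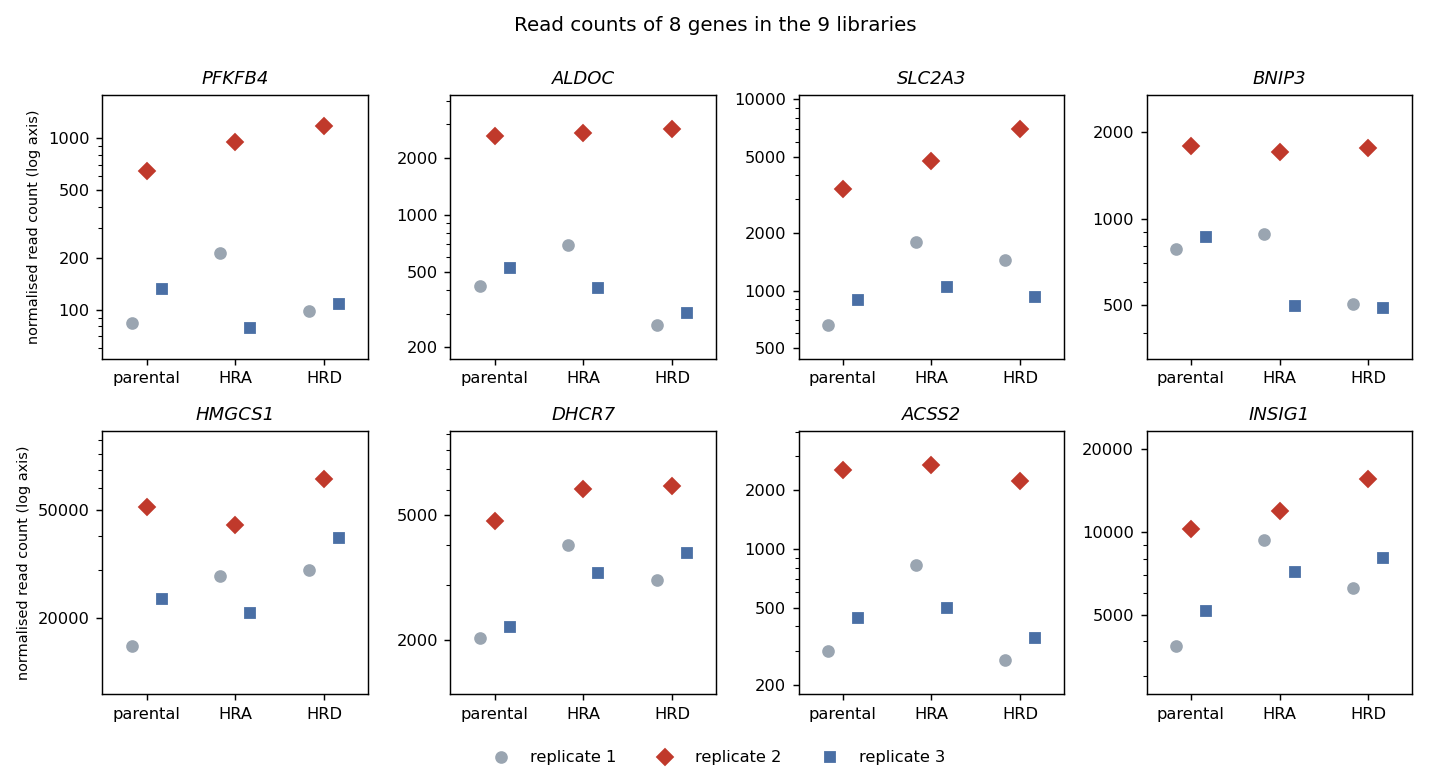
Normalised read count on a log axis (vertical) of 8 genes in the parental, HRA and HRD lines (horizontal), 1 point per library and replicate number by shape and colour. Replicate 2 was the highest of its line in all 8 genes, for example 2612, 2712 and 2847 for ALDOC against 260.4 to 695 in the other libraries.

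Genes of glycolysis were higher in part. Of 22 tested members 6 (27.3%, beside 2.66% of all tested genes) were higher and 0 lower. The median log2 difference was 0.40, and 21 of the 22 differences were above 0. The 6 were ALDOC, SLC2A3, ENO2, HK1, GPI and PGK1. The count was 10 without parental replicate 1 and 3 without any 1 of the replicate 2 libraries, and DESeq2 called 14. Against replicate 1 alone limma called 5 higher, with a list median of 0.30, and against replicate 3 alone 13, with 0.45. The list's median for replicate 3 minus replicate 1 was -0.20.

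ALDOC, the aldolase isoform typical of brain, had 2612, 2712 and 2847 normalised reads in replicate 2 and 419, 695 and 260.4 in replicate 1 and 523, 411 and 302 in replicate 3. The groups were far from overlapping, and the log2 difference of 2.72 ± 0.20 is 6.59-fold (limma adjusted p 0.000376). SLC2A3, the high-affinity glucose transporter GLUT3, had 3408, 4779 and 7005 against 661 to 1795, median 989, in the others (2.18 ± 0.20, limma adjusted p 0.000938). ENO2, an enolase isoform, had 953, 819.8 and 842 against 252 to 563, median 353 (1.20 ± 0.13, limma adjusted p 0.00187). These 3 are isoforms or transporters beside the housekeeping members of their families.

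The housekeeping enzymes had smaller differences. PGK1, phosphoglycerate kinase, and GPI, phosphoglucose isomerase, were higher by 0.45 and 0.48 (limma adjusted p 0.0359 and 0.0142). LDHA, lactate dehydrogenase A, had 93818, 83789 and 91452 in replicate 2 and 54268 to 73335, median 65099, in the others and just missed the threshold (0.50 ± 0.12, limma adjusted p 0.0502), as did SLC2A1, the transporter GLUT1 (0.48 ± 0.11, 0.0529). For GAPDH and PKM the log2 differences were 0.30 ± 0.12 and 0.19 ± 0.09 (limma adjusted p 0.214 and 0.301).

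Genes of the cholesterol list were called at the highest share of any list. Of 24 tested members 20 (83.3%, beside 2.66% of all tested genes) were higher and 0 lower. The median log2 difference was 0.66 (0.80 in parental, 0.47 in HRA and 0.67 in HRD cells). All 24 differences were above 0, beside 50.5% of all tested genes. The list's median was 0.70 against replicate 1 and 0.59 against replicate 3, and 0.09 between replicates 3 and 1. The count rested on all 3 replicate 2 libraries: it was 8 without the parental, 12 without the HRA and 5 without the HRD one, with medians of 0.55, 0.73 and 0.65. It was 7 without the variance trend and 0 without the line block, where the difference between lines enters the error.

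The CCAAT box (letters CCAAT, both strands), a general promoter element, was in 15 of 19 promoters (78.9%) of the higher members. These belonged to 13 of the 14 higher members with a promoter in the table. In all promoters of tested genes the share was 34.8%. The share was 78.3% among the promoters of all tested members and 37.6% among those of all genes higher in replicate 2. It is 1 of 15 motifs searched and was chosen for display after the shares were seen. The sterol response element core TCACNCCAC was in 0 of the 19 and in 0.993% of all promoters. It was in 1 of 23 promoters (4.35%) of all tested members and in 5 of 287 (1.74%) of all genes higher in replicate 2. The 0 says only that these letters are not in these 19 promoters. The windows show the match nearest the start in 5 higher members, with CCAAT or its reverse complement ATTGG in capitals. They lie at chr5:43313478-43313542 (minus strand) for HMGCS1, chr7:155297678-155297742 (plus strand) for INSIG1, chr11:71448407-71448471 (minus strand) for DHCR7, chr4:165327605-165327668 (plus strand) for MSMO1 and chr16:88663142-88663206 (minus strand) for MVD, in RefSeq's GRCh38.p14.
HMGCS1: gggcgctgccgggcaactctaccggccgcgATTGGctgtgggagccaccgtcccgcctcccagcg
INSIG1: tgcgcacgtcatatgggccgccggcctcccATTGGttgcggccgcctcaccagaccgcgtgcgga
DHCR7: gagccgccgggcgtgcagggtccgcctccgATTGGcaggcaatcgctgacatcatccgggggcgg
MSMO1: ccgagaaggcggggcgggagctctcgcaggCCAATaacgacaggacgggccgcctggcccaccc
MVD: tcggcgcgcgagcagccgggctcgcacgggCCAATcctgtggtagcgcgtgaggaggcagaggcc

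In the early steps of the pathway, HMGCS1, which makes HMG-CoA, had 51332, 43861 and 65069 normalised reads in parental, HRA and HRD replicate 2. It had 15854, 28716 and 30007 in replicate 1 and 23657, 20888 and 39582 in replicate 3, so replicate 2 lay above both in each line and also above all 6 others (log2 difference 1.05 ± 0.16, limma adjusted p 0.00833). ACAT2, the cytosolic acetoacetyl-CoA thiolase, had 10351, 8935 and 12381 against 4664 to 7707, median 5604 (0.84 ± 0.09, limma adjusted p 0.00138). Both separated replicate 2 from the other libraries without overlap.

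The isoprenoid steps followed the same direction. MVD, the mevalonate diphosphate decarboxylase, had 875, 912 and 1797 in replicate 2 and 392.3 to 991, median 445, in the others (1.11 ± 0.23, limma adjusted p 0.0321), and its HRD replicate 3 value of 991 lay above replicate 2 of the 2 other lines. IDI1, the isopentenyl diphosphate isomerase, and FDPS, the farnesyl diphosphate synthase, were higher by 0.72 and 0.60 (limma adjusted p 0.00703 and 0.00247). MVK, mevalonate kinase, did not pass (0.64 ± 0.17, limma adjusted p 0.0746), nor did PMVK, phosphomevalonate kinase (0.04 ± 0.12, 0.902).

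Among the sterol steps, SQLE, FDFT1, LSS, CYP51A1, MSMO1, NSDHL, HSD17B7, EBP, SC5D and DHCR7 were all higher. The largest of these differences was in DHCR7, which catalyses a final reduction to cholesterol, with 4786, 6032 and 6155 in replicate 2 and 2024 to 4002, median 3181, in the others (0.92 ± 0.10, limma adjusted p 0.00187). NSDHL, a sterol dehydrogenase, had the smallest of them, at 0.47 ± 0.09 (limma adjusted p 0.0255). TM7SF2, a sterol reductase with 148, 223 and 299.8 in replicate 2 and 73.4 to 196, median 125, in the others, did not pass (0.85 ± 0.24, limma adjusted p 0.0995).

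A sensor and a carrier of sterols were also among the called genes. INSIG1, an SREBP target that holds the SCAP-SREBP complex back, had 10252, 11934 and 15573 against 3862 to 9387, median 6699.6 (0.96 ± 0.15, limma adjusted p 0.00833). STARD4, a sterol carrier, was higher by 0.87 (limma adjusted p 0.00272). SREBF2, which encodes SREBP2, had a log2 difference of 0.23 ± 0.08 (limma adjusted p 0.188), and SREBF1 one of 0.04 ± 0.20 (0.944).

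In fatty acid synthesis and desaturation 5 of 14 tested members (35.7%, beside 2.66% of all tested genes) were higher and 0 lower. The list's median log2 difference was 0.21. ACSS2, which makes acetyl-CoA from acetate in the cytosol and nucleus, stood out with 2547, 2692 and 2228 normalised reads in replicate 2, 299, 831 and 270.4 in replicate 1 and 444, 496 and 347 in replicate 3. The lowest replicate 2 value was over all 6 others, at a log2 difference of 2.58 ± 0.20, or 5.96-fold (limma adjusted p 0.000376). The desaturases SCD, FADS1 and FADS2 and the citrate lyase ACLY were higher by 0.58, 0.66, 0.66 and 0.43 (limma adjusted p 0.0190, 0.0202, 0.0150 and 0.00882). ACACA, the carboxylase that commits acetyl-CoA to fatty acids, had -0.03 ± 0.09 (limma adjusted p 0.8996). The count of 5 became 1 without the parental or the HRD replicate 2 library, and 3 without HRA replicate 2 or HRA replicate 3.

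**Figure D3:**
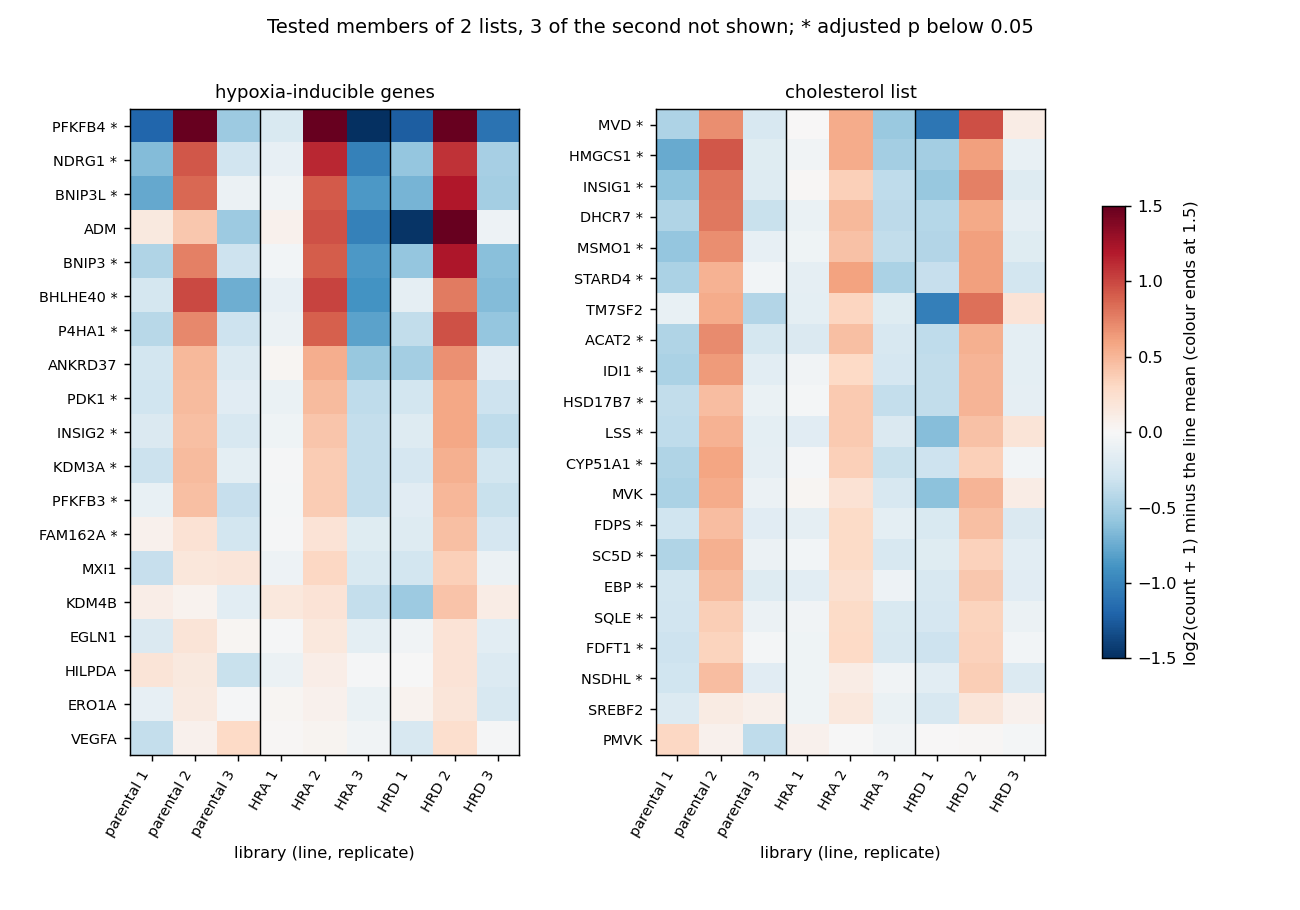
Log2 of the normalised read count plus 1, minus the mean of the line, for the 19 tested members of the hypoxia-inducible list and 21 of the cholesterol list (vertical) in the 9 libraries (horizontal), with colour ending at 1.5 in either direction. The replicate 2 column of each line is the reddest for most genes, and the asterisks mark called members.

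Brakes on the cell cycle were among the higher genes, while genes of the cycle itself were not called. CDKN1A, the cyclin-dependent kinase inhibitor p21, had 54.0, 70.3 and 122 normalised reads in replicate 2, 2.81, 17.5 and 26.3 in replicate 1 and 3.00, 15.8 and 21.4 in replicate 3, low counts in all libraries but without overlap (2.72 ± 0.33, limma adjusted p 0.00272). CCNG2, an unconventional cyclin of resting cells, PIK3IP1, an inhibitor of PI3-kinase, and TXNIP, a glucose-responsive thioredoxin-binding protein, were higher by 1.15, 1.02 and 0.39 (limma adjusted p 0.0267, 0.0408 and 0.0395). These 4 were the called members among 18 tested (22.2%, beside 2.66% of all tested genes), whose median was 0.27. The count became 1 without any 1 of the replicate 2 libraries or HRA replicate 3, and 2 without HRD replicate 3. Of 38 S phase genes and 31 genes of G2 and mitosis none was called, and their medians were 0.06 and -0.05 (0.00 for the latter without HRA replicate 2). At an unadjusted p below 0.05 there were 4 and 3, edgeR called 0 in both, and DESeq2 called 2 and 0. Of 19 p53 targets 2 (10.5%) were higher, CDKN1A and DDB2, and 1 was left without any 1 of 7 libraries. MYC, a driver of growth, had a log2 difference of -0.24 ± 0.07 (limma adjusted p 0.125).

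Genes of immediate-early and growth-factor response were higher for 6 of 36 tested members (16.7%, beside 2.66% of all tested genes) and lower for 0. Their median log2 difference was 0.38. JUN, a component of the AP-1 transcription factor, had 507, 603 and 411 in replicate 2 and 152 to 309.9, median 191, in the others, without overlap (1.34 ± 0.20, limma adjusted p 0.00833). JUND, PHLDA1, IER3, NR4A3 and DUSP6 were the other members called. The count became 0, 1 and 1 without the HRA, HRD and parental replicate 2 libraries, and 2 without HRA replicate 3 or HRD replicate 3. Of 20 inflammatory genes 3 (15%) were higher: the neutrophil chemokine CXCL8, the T cell chemokine CCL5 and TNFAIP2. Their differences were 1.26, 0.72 and 0.78 (limma adjusted p 0.00833, 0.0261 and 0.0127). That count of 3 was 1 without any 1 of the replicate 2 libraries, and 2 without HRA or HRD replicate 3. CXCL8 had 1021, 2749 and 9448 normalised reads in parental, HRA and HRD replicate 2, 345, 1562 and 6295 in replicate 1 and 282, 1145 and 3415 in replicate 3, so the lines overlapped but each replicate 2 value was the highest of its line.

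Several myeloid surface and signalling genes were among the 12 largest differences in called genes with a mean of 100 or more in replicate 2 or in the others, whichever was higher. This size could be reached through replicate 2 alone, and FGR and APLN had a mean under 100 over all 9 libraries. CD300A, an inhibitory receptor of myeloid cells, had 782, 890.1 and 1698 normalised reads in replicate 2 and 164 to 414, median 283, in the others, without overlap (1.97 ± 0.18, limma adjusted p 0.000938). CR1, the complement receptor that binds C3b, had 205, 932 and 1110.2 in replicate 2 against 58.4, 336 and 528 in replicate 1 and 25.5, 178 and 427 in replicate 3, so the groups overlapped over lines but not within them (1.84 ± 0.29, limma adjusted p 0.00882). FGR, a Src-family kinase of myeloid cells with a mean of 78.7 over the 9, was higher by 1.51 (limma adjusted p 0.00403). C6orf223 had 758, 948 and 1237 against 71.8 to 286, median 175 (2.60 ± 0.37, limma adjusted p 0.00637).

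Among the differentiation lists, the calls were lost when single libraries were left out. Of 14 monocyte and macrophage genes 2 (14.3%, beside 2.66% of all tested genes) were higher, the lysosomal protein CD68 and the Fc receptor FCGR2A, by 0.53 and 0.84 (limma adjusted p 0.0375 and 0.0483). Of 18 primary granule genes 3 (16.7%) were higher: NKG7, SERPINB1 and HGF. Both counts were 0 without any 1 of the replicate 2 libraries, and the monocyte count was also 0 without HRA replicate 1, HRA replicate 3 or HRD replicate 3 and 1 without HRD replicate 1. Without HRD replicate 1, 2 primary granule genes were lower. Of 15 late neutrophil genes and 31 myeloid transcription factors none was called, with medians of 0.26 and 0.14. At an unadjusted p below 0.05 there were 7 and 11, edgeR called 0 in both, and DESeq2 called 0 and 2. LYZ, lysozyme, had -0.01 ± 0.08 (limma adjusted p 0.964). Of 33 lysosome and autophagy genes 4 (12.1%) were higher. Among them were the cholesterol exporters of the lysosome, NPC1 (0.58 ± 0.09, limma adjusted p 0.00882) and NPC2 (0.51 ± 0.09, 0.0150). Without any 1 of the replicate 2 libraries that count was 0.

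The APOBEC3 genes, cytidine deaminases that restrict retroviruses, were looked at as a family after their values were seen. Of 6 tested, APOBEC3B, APOBEC3C, APOBEC3D, APOBEC3F and APOBEC3G were higher, beside 1.9% of all tested genes. This count of 5 became 1 without any 1 of the replicate 2 libraries and 3 without HRA replicate 3. APOBEC3G had 2060.0, 1604 and 1207 normalised reads in replicate 2 and 447 to 800.4, median 598, in the others, without overlap (1.40 ± 0.12, limma adjusted p 0.000738). The family's genes are close copies on 1 chromosome, so reads may be split between them in a way that is not known here. Of 30 interferon-stimulated genes 2 (6.67%, beside 2.66% of all tested genes) were higher. These were the membrane proteins IFITM1 and IFITM2, by 0.39 and 0.37 (limma adjusted p 0.00882 and 0.0359). That count was 0 without any 1 of the replicate 2 libraries, and 1 without HRA replicate 1, HRA replicate 3 or HRD replicate 3.

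**Figure D4:**
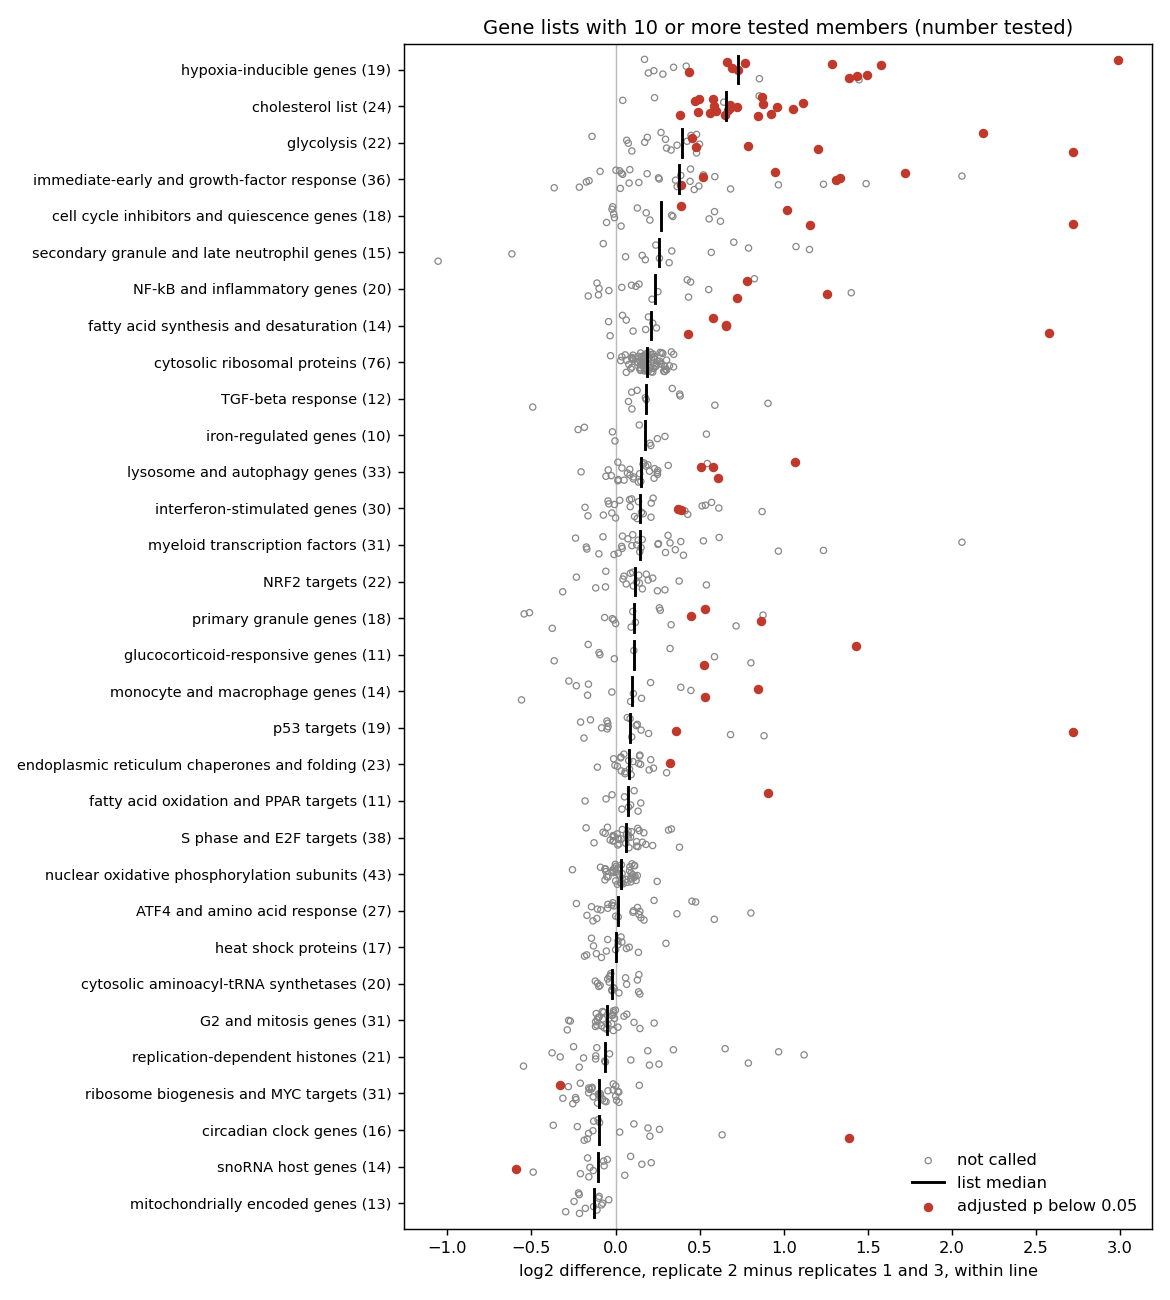
Log2 difference, replicate 2 minus replicates 1 and 3 within line (horizontal axis), of the tested members of each list with 10 or more of them (vertical axis), with filled points for called members and a bar for the list's median. The hypoxia-inducible and cholesterol lists have medians of 0.73 and 0.66, and the lists below the middle of the plot lie around 0.

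The genes lower in replicate 2 were of another make-up. Of the 95, 28 (29.5%) were not protein-coding by RefSeq's types, against 5 of 238 typed higher genes (2.1%) and 1233 of 12306 typed tested genes (10.0%). Long noncoding RNAs gave 16 lower (2.42%) and 2 higher of 661 tested, with a median log2 difference of -0.15. Transcribed pseudogenes gave 9 lower (3.47%) and 1 higher of 259, with a median of -0.11. Of all tested genes 0.756% were lower and 1.9% higher. The counts of 16 and 9 were both 0 without HRA or HRD replicate 2, 4 and 0 without parental replicate 2, 5 and 2 without HRA replicate 3, 3 and 4 without HRD replicate 3, and 8 and 6 without HRA replicate 1. They were 9 and 6 without parental replicate 3 and 25 and 15 without parental replicate 1, and without any 1 library the medians stayed below 0. Between replicates 3 and 1 the same 2 classes had medians of 0.20 and 0.13, so replicate 3 lay above replicate 1 at the median. Of the 95 lower genes 3 were in any of the 43 lists, beside 764 of the 12569 tested genes: MALAT1, SNHG12 and UTP20.

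MIR17HG, the host transcript of the oncogenic miR-17-92 cluster, had the largest downward difference among called genes that met the same size. It had 886, 427 and 747 normalised reads in replicate 2, 1313, 1009 and 1526 in replicate 1 and 1475, 1495 and 1859 in replicate 3, so every replicate 2 value was under all 6 others (-1.11 ± 0.16, limma adjusted p 0.00635). MALAT1, a nuclear-retained RNA of speckles, had 2672, 1806 and 1571 against 2438 to 3509, median 2775, in the others (-0.56 ± 0.09, limma adjusted p 0.0101), with overlap over lines. SNHG12, a host gene of small nucleolar RNAs, had 996, 841 and 794 against 1006 to 1689.8, median 1335 (-0.59 ± 0.12, limma adjusted p 0.0294).

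Of the 6 nuclear-retained RNAs tested 1 (16.7%, beside 0.756% of all tested genes) was lower, MALAT1. The other 5 were not called, and the list's median was -0.34. MALAT1 was not called without HRA or HRD replicate 2, and without parental replicate 1 there were 2 lower members. The difference was larger against replicate 3 (median -0.52) than against replicate 1 (-0.16), which was not tested as such. The list's summed normalised reads were 34658 to 41947 in replicate 2, 38526 to 43705 in replicate 1 and 41188 to 52186 in replicate 3. NEAT1, the RNA scaffold of paraspeckles, had -0.45 ± 0.16 (limma adjusted p 0.177). The part of RNA yield or integrity in these differences was not tested.

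The other lower genes of that size with the largest differences were ZNF461, LHX4-AS1, ANKDD1A, RRN3P1, MIR503HG, AGBL3, YJEFN3, RBM14-RBM4, NSUN5P2, HERC2P7 and KLRA1P, from -0.95 to -0.74. YJEFN3 and HERC2P7 had a mean under 100 over all 9 libraries. ANKDD1A had 355, 299 and 499 in replicate 2 and 547 to 770.0, median 694, in the others, without overlap (limma adjusted p 0.00635). Some of them can share reads with other genes: RRN3P1, NSUN5P2, HERC2P7 and KLRA1P are pseudogenes, RBM14-RBM4 is a readthrough of 2 genes, and LHX4-AS1 is antisense. Their values are uncertain where the counting could not separate the copies, and the counting's strand setting is not given in the sources used here.

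Genes of the splicing machinery and its regulators were noticed among the lower genes and are given by name only. ARGLU1, a splicing regulator, had 9615, 7186 and 7439.9 in replicate 2, 12051, 9505 and 11477 in replicate 1 and 14759, 11358 and 13627 in replicate 3 (-0.58 ± 0.10, limma adjusted p 0.0105). CCNL1, a cyclin linked to SR-protein phosphorylation, had 1956, 1575 and 1509 against 2057 to 2825, median 2424, in the others, without overlap (-0.52 ± 0.08, limma adjusted p 0.0104). LUC7L3, a U1 snRNP-associated protein, PRPF38B, SRSF11 and PNISR were lower, at -0.38, -0.46, -0.34 and -0.39. Classical SR proteins did not pass: SRSF1, SRSF2, SRSF3 and SRSF6 had -0.16, -0.23, 0.03 and -0.21. TERT, the telomerase reverse transcriptase, was lower by the same test, with 1364, 801 and 439.9 in replicate 2 against 1918, 1067 and 598 in replicate 1 and 2161, 1129 and 824 in replicate 3 (-0.57 ± 0.10, limma adjusted p 0.0174).

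**Figure D5:**
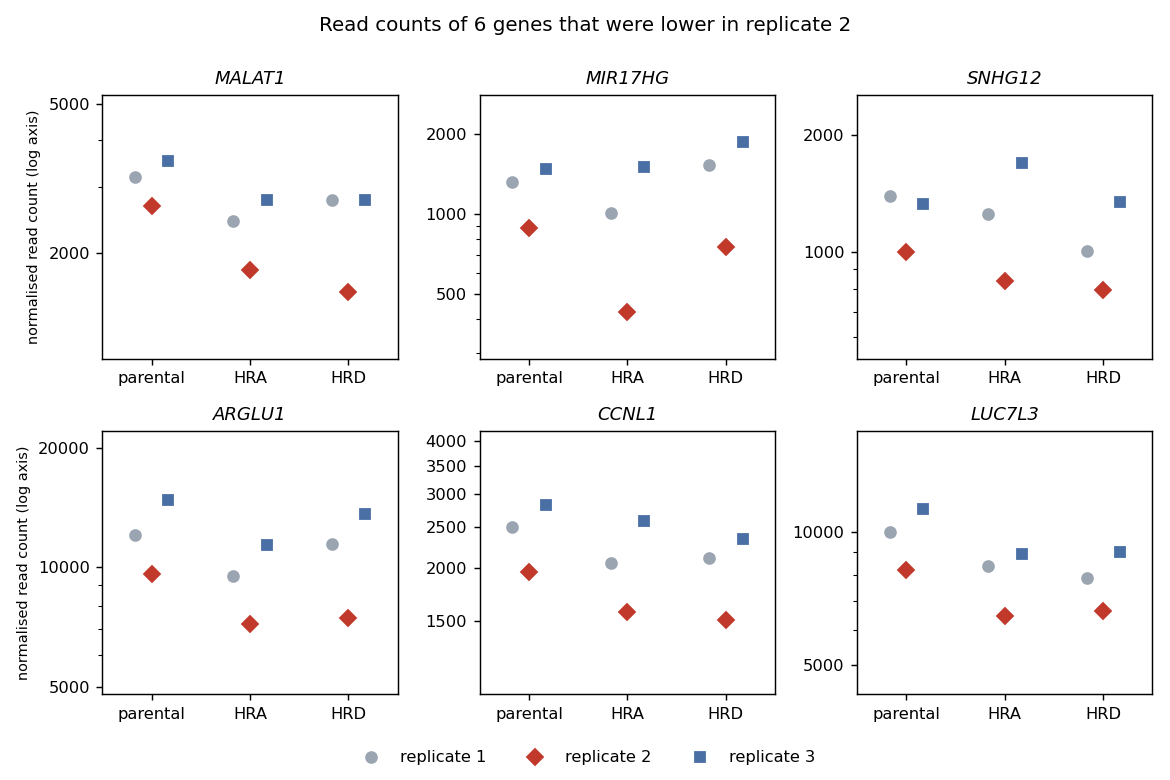
Normalised read count on a log axis (vertical) of 6 genes lower in replicate 2, in the parental, HRA and HRD lines (horizontal), 1 point per library. Replicate 2 was the lowest of its line in all 6, and replicate 3 lay above replicate 1 in most, as for MIR17HG with 1475, 1495 and 1859 against 1313, 1009 and 1526.

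Ribosomal protein genes had small differences, nearly all of 1 sign. Of 76 tested none was called by limma, with 39 at an unadjusted p below 0.05; edgeR called 2 and DESeq2 19, all higher. Of the 76 differences 75 were above 0, with a median of 0.18 and a range from -0.03 for RPS26 to 0.35 for RPS3. Of all tested genes 50.5% had a difference above 0. Against replicate 3 alone limma called 11 ribosomal protein genes higher, with a list median of 0.23. It called 0 against replicate 1 alone, with a median of 0.15. The list's median for replicate 3 minus replicate 1 was -0.09. The 13 mitochondrially encoded genes gave 0 calls by limma, edgeR or DESeq2 and 0 at an unadjusted p below 0.05, all 13 differences were below 0, and the median was -0.13, but it was 0.10 in parental, -0.33 in HRA and -0.26 in HRD cells. Among 31 genes of ribosome biogenesis and MYC targets 1 (3.23%, beside 2.66% of all tested genes) was lower, and the list's median was -0.10. This 1 was UTP20, a component of the small-subunit processome (-0.33 ± 0.08, limma adjusted p 0.0491). edgeR called 0 there, and limma called 0 without any 1 of 6 libraries and 3 without HRD replicate 1.

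Several lists of other stresses had no member called by limma or edgeR. These were the 27 ATF4 and amino acid genes (median 0.02), the 20 cytosolic aminoacyl-tRNA synthetases (-0.02), the 17 heat shock proteins (0.00), the 22 NRF2 targets (0.11), the 43 nuclear subunits of oxidative phosphorylation (0.03) and the 10 iron-regulated genes (0.17). At an unadjusted p below 0.05 they had 2, 1, 0, 4, 1 and 6 members, and DESeq2 called 1 ATF4 list member and 0 in the others. A further list, of endoplasmic reticulum chaperones and folding, had 1 of 23 tested members (4.35%, beside 2.66% of all tested genes) higher by limma. edgeR and DESeq2 also called 1 there, and the list's median was 0.08. With any 1 library left out limma called 0 or 1 of these chaperone genes. The ATF4 list's median was made of opposite signs, -0.19 in parental, 0.07 in HRA and 0.31 in HRD cells, and with any 1 library left out it lay between -0.05 and 0.17, with 0 to 5 members higher. ASNS, asparagine synthetase, TFRC, the transferrin receptor, and CIRBP, a cold-inducible RNA-binding protein, had log2 differences of 0.17 ± 0.10, 0.14 ± 0.09 and 0.20 ± 0.10 (limma adjusted p 0.420, 0.481 and 0.367). Of 16 clock genes 1 (6.25%) was higher, BHLHE40, and PER1 had 0.11 ± 0.16 (limma adjusted p 0.795). In all, 24 of the 43 lists had no called member, and 71 of the 239 higher genes were in a list, beside 764 of the 12569 tested genes.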

How the data were processed

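Expression was measured by RNA-seq in 9 libraries, 3 for each of 3 HL-60 lines. The deposited table holds a signal per gene that is a read count divided by a size factor per library: 100% of the values were whole multiples of 1 read's worth (tolerance 0.001), so whole reads were recovered. Tools listed per the submitters' processing notes, without roles, are HTSeq 0.11.1 and DESeq2 beside the aligners TopHat2 2.1.1 and Bowtie2 2.3.5.1. Cufflinks 2.2.1, Picard and the build hg19 are listed too.

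The deposited signal values plus 1 were log2-transformed and tested in R 4.3.3 with limma 3.58.1. The fit had a trended variance, line as a block and 5 residual degrees of freedom, over genes with a value of 10 or more in at least 3 libraries. These 12569 genes held 99.97% of the reads. The test was two-sided, adjusted over all tested genes (Benjamini-Hochberg, 0.05). The median SE was 0.102. P-values cover the spread between these libraries only. Alternatives were edgeR 4.0.16 and DESeq2 1.42.0 on recovered reads, TMM scaling, pseudocounts of 0.5 and 5, no filter, no trend, no line block, and leaving out each library or line. On simulated data the fit recovered most changed genes, but the share of false calls was above the nominal level.

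The members, the 43 gene lists (881 of 948 genes matched the table) and the tests were chosen with earlier results of these data known. Genes were named by rule: the 12 largest and 12 smallest differences among called genes with a mean of at least 100 in replicate 2 or in the others, whichever was higher, and the same order in all 3 lines, then up to 6 called and 4 uncalled members of each list, and TXNIP, MYC, MPO, LYZ, TFRC, HMGCS1, ASNS, CIRBP and PER1. Further list members, the APOBEC3, splicing and hypoxia-related genes outside the lists, and the genes drawn in the plots by library, were chosen after their values were seen. Promoters come from RefSeq (GRCh38.p14), and 9691 tested genes had 13997. Some genes of the lists are not reported here by name, though they are counted with their list.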

Additional observations from a re-analysis of the deposited data

How the results depend on the processing

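No called gene named by the rule reversed its sign under the alternatives run, and the sign of genes called in neither fit was not followed. Some list medians near 0 did change sign, among them G2 and mitosis (-0.05 to 0.003) and the aminoacyl-tRNA synthetases (-0.02 to 0.004) without HRA replicate 2, ATF4 genes (0.02 to -0.05) and heat shock proteins (0.00 to -0.05) without HRD replicate 2. The counts changed most with the libraries in the fit. Against replicates 1 and 3, leaving out 1 library gave 36 to 307 higher and 1 to 194 lower genes: 55 and 5 without parental, 52 and 1 without HRA, and 36 and 1 without HRD replicate 2. HRA replicate 3 (118 and 20), HRD replicate 3 (139 and 28), HRA replicate 1 (50 lower), HRD replicate 1 (194 lower), parental replicate 1 (177 lower) and parental replicate 3 (56 lower) each moved at least 1 count by over 1.5 times. The ranges were 7 to 195 higher and 0 to 248 lower against replicate 1, 59 to 757 higher and 32 to 667 lower against replicate 3, and 0 to 7 higher and 0 to 32 lower between replicates 3 and 1; the interaction stayed at 0. The highest of these counts all came without HRD replicate 1. Without the HRA, HRD and parental lines in turn, the counts against both replicates were 38, 24 and 98 higher and 1, 1 and 17 lower; against replicate 3 they were 13, 166 and 119 higher and 0, 127 and 85 lower; against replicate 1 they were 20 higher without HRA and 18 without parental, and 0, 99 and 1 lower. Without the line block the counts were 3 and 0 against both, and 0 in each direction against either replicate alone. Without the variance trend they were 75 higher and 18 lower against both, 0 and 0 against replicate 1, 111 and 162 against replicate 3, and 1 higher between replicates 3 and 1. DESeq2 gave 390 higher and 184 lower against both, 220 and 38 against replicate 1, and 15 and 3 between replicates 3 and 1. With no filter on low values the interaction gave 635 genes. Fewer samples and, without the block, the variance between lines lower the power; other causes were not tested. Of 75 called genes named by the rule, 74 were called by DESeq2, 69 by edgeR, 28 without the trend, 3 without the block and 23 to 72 with 1 library left out. No paired analysis was possible because the comparison is itself between the replicate numbers, so a block on the number would remove it.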

Other observations

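Further genes of leukocyte surfaces and of lipid and methyl metabolism were among the called genes and belong to no list; they were picked after their values were seen. GPR84, a receptor for medium-chain fatty acids on myeloid cells, had 770.5, 467 and 557 normalised reads in parental, HRA and HRD replicate 2 and 154 to 348, median 224, in the others, without overlap (1.41 ± 0.16, limma adjusted p 0.00205). CD69, an early activation antigen, had 2373, 4198 and 2876 against 1186 to 2484, median 1502 (0.98 ± 0.12, 0.00318). PLAUR, the urokinase receptor, ANPEP, an aminopeptidase of myeloid cells (CD13), and ITGAX, an integrin subunit (CD11c), were higher by 0.87, 0.83 and 0.90 (limma adjusted p 0.0310, 0.00584 and 0.0464).

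TMEM97, a sterol-regulated membrane protein, had 7652, 7335 and 8021 in replicate 2 and 4029 to 5859.9, median 4721, in the others, with the HRA replicate 1 value of 5859.9 the nearest (0.69 ± 0.10, limma adjusted p 0.00584). ELOVL4, an elongase of very long-chain fatty acids, was higher by 1.32 (limma adjusted p 0.00138). MAT2A, which makes S-adenosylmethionine, was lower, with 10891, 7177 and 8918 against 9829 to 14946, median 13387 (-0.55 ± 0.10, limma adjusted p 0.0150).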
